A study of Mus musculus with 7 samples.

Results

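The 9 genes described here encode components of the Hedgehog signalling pathway: the ligand Shh, the receptor and co-receptor genes Ptch1, Smo, Gas1 and Hhip, the cytoplasmic regulator Sufu, and the transcription factor genes Gli1, Gli2 and Gli3. They were chosen by symbol, and all 9 were found among the 24354 gene symbols of the deposited expression table. The study compared fibroblasts, cortical neural stem cells and iNSCs, that is, induced neural stem cells obtained by converting fibroblasts with reprogramming factors and neural stem cell medium. RNA sequencing gave 1 library per line, and per the labels' protocols each library was made from RNA pooled from 2 to 3 biological replicates.

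The 5 iNSC libraries were DTA, pBKSM, pOKSM, mcBKSM clone 1 and mcBKSM clone 3. All 5 came from embryonic day 13.5 fibroblasts infected with lentivirus or retrovirus. In the line names, p is taken as a polycistronic and mc as a monocistronic vector, K, S and M as Klf4, Sox2 and Myc, O as Oct4 (gene Pou5f1) and B as Brn4 (gene Pou3f4). The fibroblasts behind pBKSM, pOKSM and both mcBKSM clones carried Oct4-CreER with Rosa26-loxSTOPlox-EYFP, on the strain given as C57BL/6-Pou5f1 x 129X1/SvJ, and the mouse embryonic fibroblast (MEF) library, also of embryonic day 13.5, had this genotype and strain as well. The fibroblasts behind the DTA line carried Oct4-CreER with Rosa26-loxSTOPlox-DTA, a toxin gene released by Cre where the Oct4 promoter has been active, and their strain is labelled unknown; the labels do not name the vector of this line. The control neural stem cells (cNSCs) were taken from cerebral cortex at embryonic day 13.5 from OG2/ROSA26 embryos, so strain and genotype differed between cNSC and the fibroblast-derived libraries and cannot be told apart from cell type. Both mcBKSM libraries are clones, and mcBKSM is the only label with more than 1 library.

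Hedgehog signalling is a morphogen pathway that patterns the ventral neural tube and sustains proliferation of neural progenitors. Without ligand, the receptor Patched-1 keeps the membrane protein Smoothened inactive, Sufu restrains the Gli proteins, and Gli3 is processed to a repressor. Ligand binding relieves Smoothened, Gli2 acts as the main activator, and Gli1, Ptch1 and Hhip are transcribed as targets, of which Ptch1 and Hhip feed back to limit the signal.

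Levels are given in the authors' deposited FPKM, a count of sequenced fragments scaled for transcript length and library size. The step between low FPKM values put the depth at approximately 11800000 (pBKSM) to 17400000 (DTA) fragments per library, and between 10907 and 11429 genes reached 1 FPKM. The neural stem cell markers Nes and Fabp7 were at 132 to 275 and 459 to 5051 FPKM in the iNSC lines. They were at 225 and 1654 FPKM in cNSC, and at 0.103 and 0 FPKM in MEF. Of 11 such markers, 6 were called higher and 0 lower in iNSCs than in MEF by the limma test used below. Of all genes, 6.77% were called higher and 9.55% lower. Vim did not separate the classes, at 1669 to 3126 FPKM in the iNSC lines, 4206 FPKM in cNSC and 2239 FPKM in MEF. The fibroblast marker Col1a1 was at 440 FPKM in MEF and below 1 FPKM in the other libraries. Of 9 markers of the dorsal neural tube and forebrain, Emx1 was listed at 0 in cNSC. Emx2, Eomes, Neurog2 and Msx1 were at 0.0251, 0.0699, 0.239 and 0.451 FPKM there, and Pax3, Pax7, Pax6 and Zic1 at 3.59, 4.99, 9.60 and 22.3 FPKM. Pou3f4 was at 24.1 FPKM in DTA, 19.99 FPKM in pBKSM and 2.26 FPKM in pOKSM, against 27.2 FPKM in cNSC and 0 in MEF. The pBKSM value was below that of cNSC, so it does not check the B of the pBKSM label. Both mcBKSM clones had a listed value of 0, so the B of their label is unchecked too. Pou5f1 was at 0.202 FPKM in pOKSM and at no more than 0.398 FPKM elsewhere, so the O of the pOKSM label is unchecked as well. The pOKSM and mcBKSM libraries stood close together: of the genes reaching 5 FPKM in 1 or both of a pair, 2.81% and 2.26% differed 2-fold or more on the log2(FPKM + 1) scale between pOKSM and clones 1 and 3, and 11.6% did so between pBKSM and pOKSM.

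Promoters are shown first for Ptch1, Gas1 and Gli2, the members called in a comparison below, and for Gli3, whose level set pBKSM apart from the other iNSC lines. RefSeq promoter windows (GRCm38.p6, 250 bases before to 50 after an annotated start site) matched 7 of the 9 genes: Ptch1, Smo, Gli2, Gli3, Hhip, Sufu and Gas1. The windows of Ptch1, Gas1, Gli2 and Gli3 are printed 5′ to 3′ on the gene's strand, with capitals marking 2 motifs, the 7-base Gli core ACCACCC and the GC box GGGCGGG, a motif bound by Sp1-type factors, each searched on both strands. The Ptch1 window lies at chr13:63565686-63565985 on the minus strand, and its start site is 7863 bases inside the gene's outer end in GENCODE M21. The Gas1 window lies at chr13:60177486-60177785 on the minus strand, the Gli2 window at chr1:119053570-119053869 on the minus strand and the Gli3 window at chr13:15463473-15463772 on the plus strand.
Ptch1: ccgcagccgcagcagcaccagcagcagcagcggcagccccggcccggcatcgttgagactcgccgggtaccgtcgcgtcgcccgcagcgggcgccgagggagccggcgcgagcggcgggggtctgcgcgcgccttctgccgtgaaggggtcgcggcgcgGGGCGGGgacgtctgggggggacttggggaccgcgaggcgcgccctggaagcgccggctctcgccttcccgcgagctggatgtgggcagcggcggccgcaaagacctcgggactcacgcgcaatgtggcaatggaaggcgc
Gas1: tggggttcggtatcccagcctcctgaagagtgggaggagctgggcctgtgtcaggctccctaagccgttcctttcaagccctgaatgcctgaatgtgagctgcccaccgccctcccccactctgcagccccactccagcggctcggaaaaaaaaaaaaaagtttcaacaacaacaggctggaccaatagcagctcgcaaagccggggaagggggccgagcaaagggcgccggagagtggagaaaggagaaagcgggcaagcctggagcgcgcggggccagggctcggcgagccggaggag
Gli2: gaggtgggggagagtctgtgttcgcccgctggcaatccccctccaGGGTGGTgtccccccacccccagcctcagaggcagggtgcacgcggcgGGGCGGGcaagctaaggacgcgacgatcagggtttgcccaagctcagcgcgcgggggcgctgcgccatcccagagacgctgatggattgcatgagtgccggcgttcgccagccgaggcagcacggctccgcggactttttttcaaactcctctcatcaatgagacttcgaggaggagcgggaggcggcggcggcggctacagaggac
Gli3: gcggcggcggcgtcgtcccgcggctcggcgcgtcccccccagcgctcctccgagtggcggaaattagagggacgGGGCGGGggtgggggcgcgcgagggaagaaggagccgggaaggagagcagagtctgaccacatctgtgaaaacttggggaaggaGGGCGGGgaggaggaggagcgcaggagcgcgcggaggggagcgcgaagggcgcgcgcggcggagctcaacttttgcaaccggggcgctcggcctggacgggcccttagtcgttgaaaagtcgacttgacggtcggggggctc
The 9-base Gli consensus GACCACCCA, also searched on both strands and containing the 7-base core, was in none of the 7 windows and in 0.253% of all 32851 windows in the table. The 7-base core was found in the Gli2 window alone of the 7, 205 bases before the start site, and in 4.61% of all windows. The GC box was in 5 of the 7 windows (Ptch1, Gli2, Gli3, Hhip and Sufu), against 25.6% of all windows. These are matches of letters in short windows and say nothing about binding.

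The ligand gene Shh (chromosome 5, 28456815 to 28467256, mm10 coordinates from GENCODE M21) was below 1 FPKM in all 7 libraries and close to the detection limit in all but cNSC. It was at 0.0935 FPKM in DTA, 0.127 in pOKSM, 0.0537 and 0.0296 in mcBKSM clones 1 and 3 and 0.684 in cNSC, and it was listed at 0 in pBKSM and MEF. The cNSC value corresponds to approximately 30.1 fragments on the 2847-base transcript, and the iNSC values to between 0 and 4.3 fragments. A count of 0 allows up to 3 fragments, which is 0.0960 FPKM in pBKSM and 0.0683 FPKM in MEF, for counting error only. The cNSC library alone stood clear of this limit. Because no library reached 1 FPKM, Shh was not among the genes tested. In a fit without a filter on low values the log2(FPKM + 1) difference, iNSC minus cNSC, was -0.67. The spread in that fit came from iNSC values near the detection limit and does not measure the error of the single cNSC value, so no p-value is given. The other ligand genes were also low, with Dhh (desert hedgehog) at 0.763 FPKM or less and Ihh (Indian hedgehog) at 0.227 FPKM or less in each library.

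Ptch1, encoding the Hedgehog receptor (chromosome 13, 63508328 to 63573598), was higher in every iNSC library than in either reference. It was at 25.2 FPKM in DTA, 19.1 FPKM in pBKSM, 23.2 FPKM in pOKSM, and 26.1 and 19.2 FPKM in mcBKSM clones 1 and 3, against 12.2 in cNSC and 4.57 in MEF. The lowest iNSC library was above cNSC, and cNSC was above MEF. Each reference is a single library, and both references also fell outside the iNSC range for Smo, Gas1 and Hhip. The share of all genes with such an order was not counted. The iNSC lines averaged 22.6 ± 3.27 FPKM (SD, n = 5), 4.94 times the MEF value and 1.85 times the cNSC value. With limma across all genes, Ptch1 rose against MEF by 2.07 ± 0.23 on the log2(FPKM + 1) scale (SE, adjusted p = 0.00381). Against cNSC the difference was 0.83 ± 0.23 (adjusted p = 0.234) and did not pass. Within the iNSC lines the clones alone differed by nearly the whole range, so their order cannot be told from the spread between clones.

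Smo, encoding the signal transducer Smoothened (chromosome 6, 29735503 to 29761365), lay at or below the reference level in the iNSC lines. It was at 47.998 FPKM in DTA, 40.6 in pBKSM, 29.9 in pOKSM, and 19.8 and 21.3 in mcBKSM clones 1 and 3, against 48.2 in cNSC and 51.4 in MEF. All 5 iNSC values were below both references, with DTA level with cNSC and the clones lowest. The differences did not pass (iNSC minus MEF -0.75 ± 0.52, adjusted p = 0.366; iNSC minus cNSC -0.66 ± 0.52, adjusted p = 0.591).

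Gas1, encoding a membrane-anchored co-receptor that binds the ligand (chromosome 13, 60174405 to 60177365), fell in iNSCs against MEF. It was at 67.1 FPKM in DTA, 58.7 in pBKSM, 49.9 in pOKSM, and 52.1 and 70.5 in mcBKSM clones 1 and 3, against 34.7 in cNSC and 115 in MEF. All 5 iNSC values lay between cNSC and MEF, each of which is a single library. The iNSC mean of 59.7 ± 9.04 FPKM (SD, n = 5) was 0.519 times the MEF value, a log2(FPKM + 1) difference of -0.95 ± 0.23 (SE, limma adjusted p = 0.0444). Against cNSC the difference was 0.75 ± 0.23 (adjusted p = 0.26). The call against MEF was close to the threshold and was lost with quantile normalization (adjusted p = 0.0869) and without pOKSM (0.0914), pBKSM (0.0744), mcBKSM clone 1 (0.0867) or mcBKSM clone 3 (0.0574) or with the clones averaged (0.0542). Fibroblast markers moved with it: the summed level of 10 such genes was 9.12 to 254 FPKM in the iNSC lines and 135 FPKM in cNSC, against 4608 FPKM in MEF, where Lum alone was listed at 0. The upper end in the iNSC lines was mostly Fbln2, at 249 FPKM in pBKSM against 198 FPKM in MEF. Of the 9 markers tested, 7 fell against MEF; their part in the Gas1 difference was not tested. In pooled cultures, fewer cells expressing a gene and less RNA per cell cannot be told apart.

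Hhip, encoding a membrane protein that sequesters Hedgehog ligands (chromosome 8, 79965851 to 80058006), was low throughout. It was at 2.03 FPKM in DTA, 0.531 in pBKSM, 0.677 in pOKSM, 1.41 and 0.497 in mcBKSM clones 1 and 3, 0.246 in cNSC and 0.00686 in MEF. The 5 iNSC libraries were all above cNSC, and MEF was at the level of approximately 1.0 fragment, below the 3-fragment limit. Only DTA and mcBKSM clone 1 reached 1 FPKM, so the gene entered the test through its high libraries. Limma gave 0.95 ± 0.43 for iNSC minus MEF (adjusted p = 0.198) and 0.64 ± 0.43 for iNSC minus cNSC (adjusted p = 0.546).

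Sufu, the inhibitor that holds Gli proteins in the cytoplasm (chromosome 19, 46396896 to 46488804), was the least variable member. It was at 15.9 FPKM in DTA, 14.7 in pBKSM, 18.4 in pOKSM, and 17.2 and 16.4 in mcBKSM clones 1 and 3, against 11.6 in cNSC and 16.4 in MEF. MEF lay inside the iNSC range and cNSC below it. The log2(FPKM + 1) difference from MEF was 0.00 ± 0.18 (95% interval -0.44 to 0.45, adjusted p = 0.993) and that from cNSC was 0.47 ± 0.18 (adjusted p = 0.343).

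**Figure D1:**
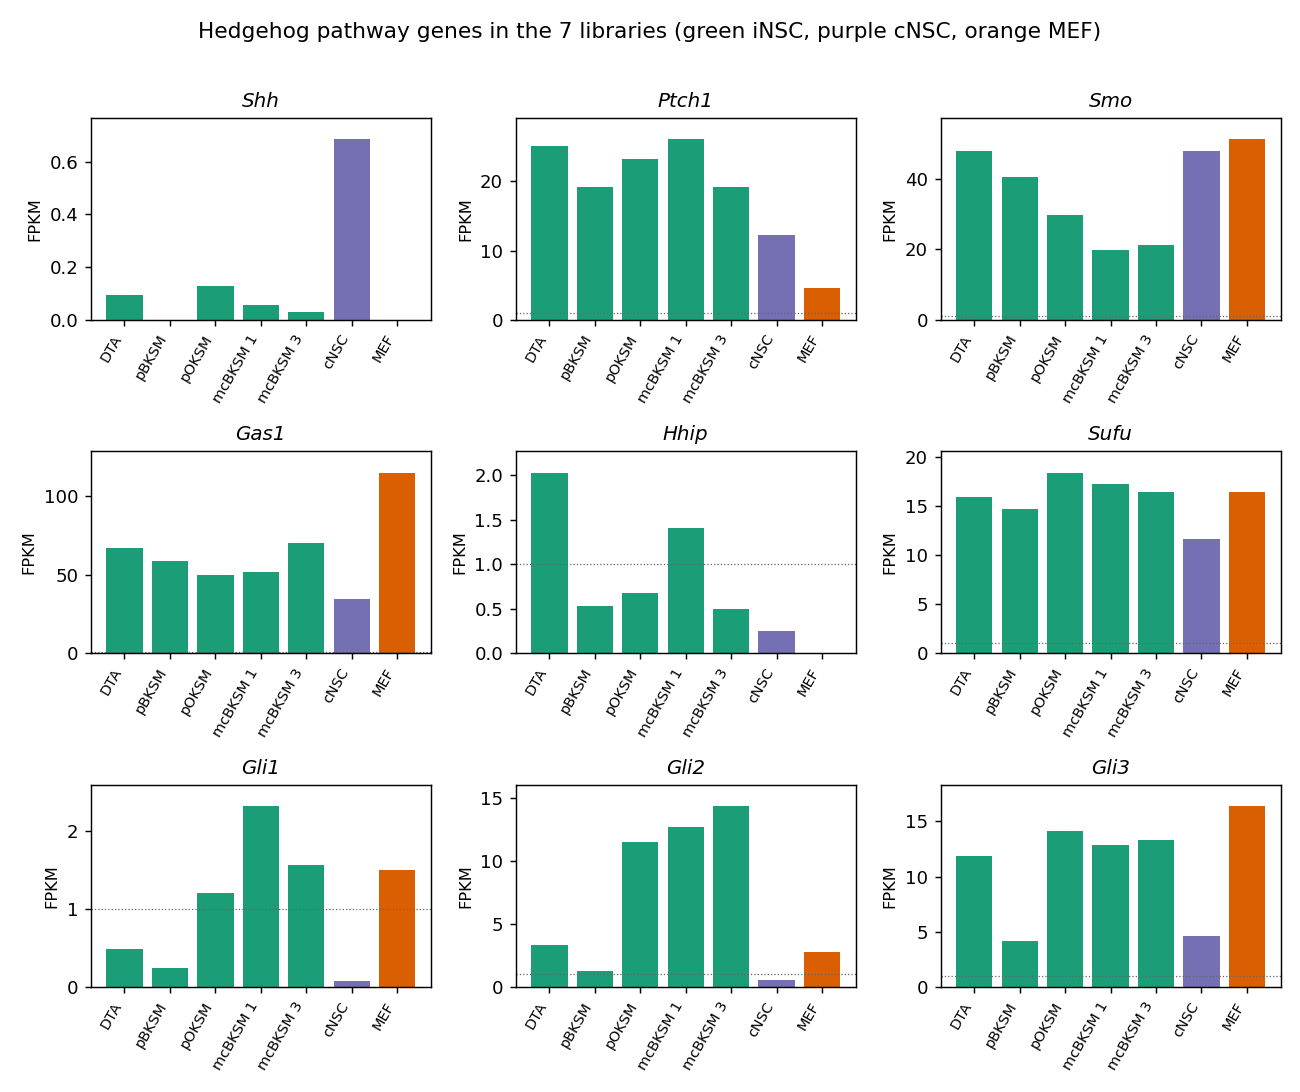
FPKM (vertical axes, linear from 0) of the 9 Hedgehog pathway genes in each of the 7 libraries (horizontal axes), 1 bar per library with no error because each library is a single pool; the dotted line marks 1 FPKM where it fits the axis. Ptch1 was higher in all 5 iNSC libraries than in cNSC and MEF, and Gli2 was 11.5 to 14.3 FPKM in pOKSM and both mcBKSM clones and 3.36 FPKM or less in the other libraries.

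The 3 Gli genes varied widely among the iNSC lines, and no class difference passed for any of them. Gli2, the main activator (chromosome 1, 118834132 to 119053619), was at 3.36 FPKM in DTA, 1.26 in pBKSM, 11.5 in pOKSM, and 12.7 and 14.3 in mcBKSM clones 1 and 3, against 0.550 in cNSC and 2.73 in MEF. The pOKSM library and both clones formed a high group that no other library approached, and pBKSM lay below MEF. As a class the iNSC lines averaged 8.64 ± 5.91 FPKM (SD, n = 5), and this spread left the differences from MEF (1.03 ± 1.15, adjusted p = 0.565) and from cNSC (2.30 ± 1.15, adjusted p = 0.448) short of the threshold.

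Gli3, whose product is mostly processed to a repressor (chromosome 13, 15463235 to 15730026), was at 11.8 FPKM in DTA, 4.17 in pBKSM, 14.1 in pOKSM, and 12.9 and 13.3 in mcBKSM clones 1 and 3, against 4.59 in cNSC and 16.4 in MEF. Here pBKSM stood with cNSC, and the other 4 iNSC lines lay together at 11.8 to 14.1 FPKM, below MEF. Differences of the class did not pass (iNSC minus MEF -0.60 ± 0.63, adjusted p = 0.543; iNSC minus cNSC 1.04 ± 0.63, adjusted p = 0.508). Gli1, a target gene often used as a readout of the pathway (chromosome 10, 127329882 to 127341974), was at 0.485 FPKM in DTA, 0.246 in pBKSM, 1.21 in pOKSM, and 2.32 and 1.56 in mcBKSM clones 1 and 3, against 0.0699 in cNSC and 1.51 in MEF. The cNSC value corresponds to approximately 4.5 fragments, and all 5 iNSC libraries were above it, while only the clones were above MEF. Neither Gli1 difference passed (iNSC minus MEF -0.30 ± 0.55, adjusted p = 0.733; iNSC minus cNSC 0.93 ± 0.55, adjusted p = 0.504). Gli1 overlaps Arhgap9 on the opposite strand, which reached at most 0.373 FPKM; the sources used here do not say whether counting used strand.

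Over the whole class, 2 of the 8 members tested against MEF were called at a limma adjusted p under 0.05, Ptch1 higher and Gas1 lower, where 16.3% of all 13042 genes tested were called (6.77% higher and 9.55% lower). The median member difference was -0.15 on the log2(FPKM + 1) scale, beside 0.03 over all genes tested. Against cNSC limma called 0 of 8 members, beside 1.17% of all genes (0.207% higher and 0.958% lower), and 3 members (Ptch1, Sufu and Gas1, all higher in iNSCs) were at an unadjusted p under 0.05, as were 1779 of all 13042 genes. The median member difference from cNSC was 0.79, beside 0.00 over all genes. Both comparisons use the same 5 iNSC libraries. Of 3 smooth muscle markers tested against cNSC, 3 were called lower in iNSCs: Acta2, Tagln and Cnn1, at 47.5, 6.04 and 5.61 FPKM in cNSC and at most 0.860, 0.337 and 0.0474 FPKM in the iNSC lines. Cnn1 reached 1 FPKM in cNSC alone. The astrocyte marker Gfap was at 374 FPKM in cNSC and at most 24.5 FPKM in the iNSC lines, without being called. The part of these markers in the member differences was not tested. Leaving out pOKSM, pBKSM or either clone left Ptch1 as the only called member against MEF, and averaging the clones into 1 library, an alternative added after seeing the data, did the same.

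**Figure D2:**
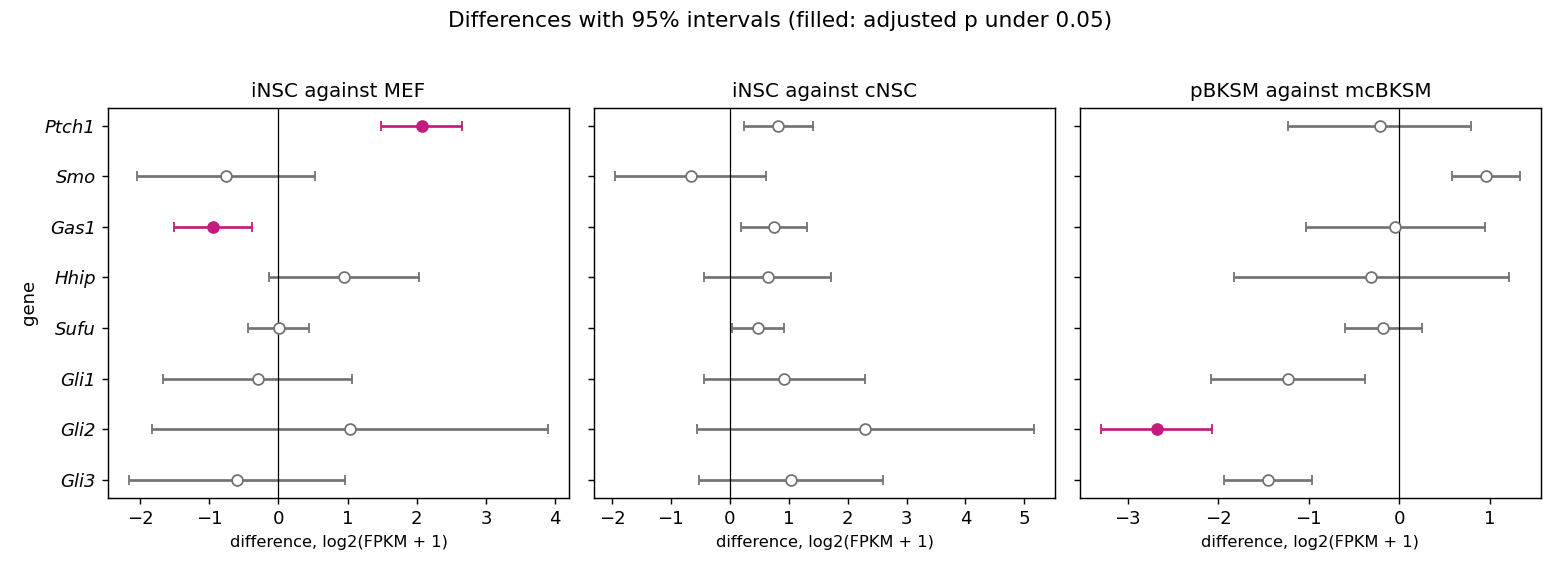
Differences on the log2(FPKM + 1) scale (horizontal axes) with 95% intervals from the limma fits for the 8 tested members (vertical axis) in 3 comparisons; filled symbols have an adjusted p under 0.05. Ptch1 lay above 0 and Gas1 below 0 in iNSC against MEF, no member was called against cNSC, and Gli2 was lower in pBKSM than in mcBKSM.

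The line labelled pBKSM was then set against the mcBKSM clones, which by label share its factors and differ in vector type. The mcBKSM libraries are also labelled as clones, which pBKSM is not. Levels of Pou3f4, Sox2 and Myc differed too. In pBKSM and clones 1 and 3, Pou3f4 was at 19.99, 0 and 0 FPKM. Sox2 was at 87.6, 342 and 390 FPKM and Myc at 78.9, 450 and 485 FPKM, in the same order. Klf4 was at 11.7 FPKM in pBKSM, between clone 1 at 16.6 FPKM and clone 3 at 5.91 FPKM. Whether these factor reads came from a vector or the endogenous genes is not recorded. Vector type, clonality and factor levels cannot be told apart here. Gli2 was lower in pBKSM, at 1.26 FPKM against 12.7 and 14.3 FPKM in the clones, a difference of -2.68 ± 0.16 on the log2(FPKM + 1) scale (SE, limma adjusted p = 0.0454), or 0.0934 times the mean of the clones in FPKM. It was the only called member of 8, where 5.82% of all genes were called (3.74% higher and 2.08% lower). Gli3 (4.17 against 12.9 and 13.3 FPKM; difference -1.45 ± 0.13, adjusted p = 0.0551) and Gli1 (0.246 against 2.32 and 1.56 FPKM; -1.23 ± 0.22, adjusted p = 0.0935) were lower without passing, and Smo (40.6 against 19.8 and 21.3 FPKM; 0.95 ± 0.10, adjusted p = 0.063) was higher without passing. Ptch1, Hhip, Sufu and Gas1 in pBKSM differed from the mean of the clones by -0.31 to -0.05, with adjusted p from 0.346 to 0.918. The spread came from the 2 clones alone, with 1 residual degree of freedom, and Gli2 was not called with a pseudocount of 0.1 (adjusted p = 0.0522) or without a filter (0.0698). In a fit of the 3 BKSM libraries alone Gli2, Gli3 and Smo were called. Calls rose across all genes in that fit as well, as given in the last section, so the added calls are not read as a result about the members.

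Markers of other states moved with these differences. Of 7 neuronal markers Rbfox3, Syt1 and Stmn2 were lower in pBKSM than in the clones, and of 5 astrocyte markers S100b, Aldh1l1 and Aldoc were higher. Of 11 neural stem cell markers Olig2 and Slc1a3 were called higher and Sox2 and Sox1 lower, and of 5 tested markers of the oligodendrocyte lineage Olig2 was called higher and Pdgfra lower. Summed astrocyte markers were at 497 FPKM in pBKSM, against 106 and 102 FPKM in the clones, where Gfap and S100b were listed at 0 in clone 3. Summed neuronal markers were at 276 FPKM in pBKSM, with Stmn2 and Snap25 listed at 0, against 204 and 258 FPKM in the clones. Map2 made up most of that sum, at 259 FPKM in pBKSM against 113 and 160 FPKM in the clones, so the sum and the called neuronal markers ran in opposite directions. The part of these markers in the Gli differences was not tested.

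Between pBKSM and pOKSM, both labelled as polycistronic, with B and O as their differing letters, Gli2 was at 1.26 FPKM in pBKSM against 11.5 in pOKSM and Gli3 at 4.17 against 14.1. Limma called 0 of 8 members and 0% of all 13042 genes (3269 at an unadjusted p under 0.05), with spread borrowed from the mcBKSM clones. Gli2 (difference -2.47 ± 0.18, adjusted p = 0.113) and Gli3 (-1.55 ± 0.15, adjusted p = 0.121) were the members at an unadjusted p under 0.05. These comparisons share the pBKSM library with those against the clones.

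The DTA line was set against the other 4 iNSC lines. Limma called 0 of 8 members, beside 0.355% of all 12378 genes tested in this fit (0.202% higher and 0.153% lower; 2533 at an unadjusted p under 0.05), and 0 members were at an unadjusted p under 0.05. Hhip (2.03 FPKM in DTA, 0.497 to 1.41 FPKM in the others; difference 0.80 ± 0.35, adjusted p = 0.283) and Smo (47.998 FPKM in DTA, 19.8 to 40.6 in the others; 0.82 ± 0.42, adjusted p = 0.344) were highest in DTA of the 5 lines. Leaving out pBKSM changed this: against pOKSM and the clones alone, Gli2 was lower in DTA (difference -1.66 ± 0.17) and Smo higher (1.01 ± 0.26). Both were called, but calls rose strongly across all genes in that fit, as given in the last section. The 2 calls are therefore not read as a result about the members. Of 5 astrocyte markers Aqp4 was called higher in DTA (12.7 FPKM, against 0.0300 to 0.560 FPKM in the others); its part in these values was not tested.

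The cortical and fibroblast libraries were 1 library each, so their difference has no replicate check. In cNSC, Ptch1 was 2.67 times the MEF value, at 12.2 FPKM against 4.57, and Gas1 (34.7 FPKM in cNSC, 115 in MEF), Gli3 (4.59 in cNSC, 16.4 in MEF), Gli2 (0.550 in cNSC, 2.73 in MEF) and Gli1 (0.0699 in cNSC, 1.51 in MEF) were lower. Requiring a 4-fold difference in FPKM + 1 and 5 FPKM or more in the higher library, 0 of 8 members passed, beside 10.7% of all genes (5.77% higher and 4.95% lower). Smo was nearly level, at 48.2 FPKM in cNSC and 51.4 in MEF.

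The libraries with the highest Gli2 had the lowest Smo, a pair picked after the values of all members were seen. The pOKSM library and both mcBKSM clones had Smo at 19.8 to 29.9 FPKM with Gli2 at 11.5 to 14.3 FPKM, whereas DTA, pBKSM, cNSC and MEF had Smo at 40.6 to 51.4 FPKM with Gli2 at 0.550 to 3.36 FPKM. The Gli2 values formed 2 separate clusters, so no correlation is given. Smo was graded, with pOKSM at 29.9 FPKM between mcBKSM clone 3 at 21.3 and pBKSM at 40.6. The Smo difference, pBKSM minus pOKSM, was 0.43 on the log2(FPKM + 1) scale. The 3 libraries of the first cluster are those that stood close together across all genes, as given above. Levels of Sox2 and Myc split the same way: Sox2 was at 277, 342 and 390 FPKM in pOKSM and clones 1 and 3, against 106 FPKM in DTA, 87.6 in pBKSM, 107 in cNSC and 0 in MEF, and Myc was at 339, 450 and 485 FPKM in the first cluster, against 42.5 to 78.9 FPKM in the second. Klf4 did not split this way, at 5.20 to 16.6 FPKM in the first cluster and 4.08 to 21.8 FPKM in the second. Pou3f4 was at 0 to 2.26 FPKM in the first cluster. In the second it was at 19.99 to 27.2 FPKM except in MEF, where it was listed at 0. Whether reads of these factors came from a vector or the endogenous genes is not recorded. Their part in the Gli2 and Smo values was not tested.

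**Figure D3:**
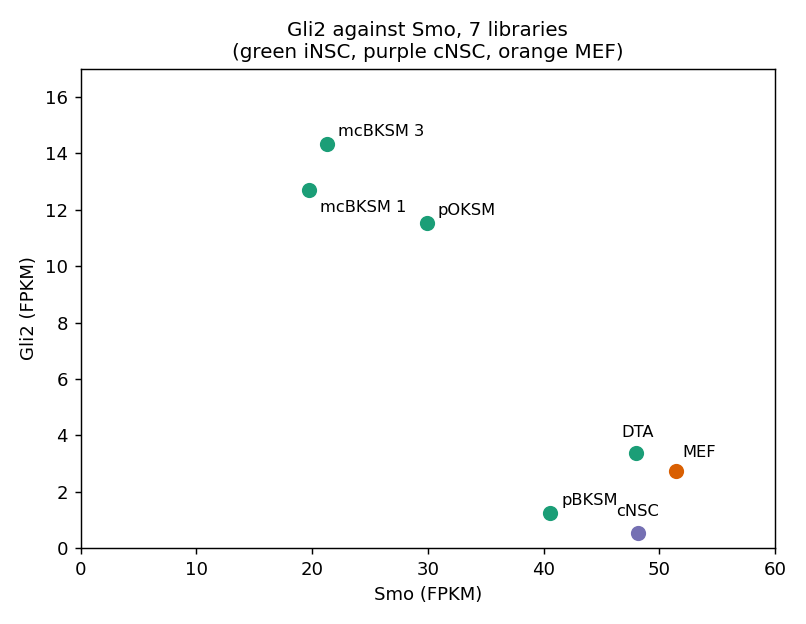
Gli2 (vertical axis, FPKM) against Smo (horizontal axis, FPKM) in the 7 libraries, 1 point per library, both axes linear from 0. The pOKSM library and both mcBKSM clones lie at the upper left (Gli2 11.5 to 14.3 FPKM, Smo 19.8 to 29.9 FPKM), and DTA, pBKSM, cNSC and MEF at the lower right.

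Further pathway genes were described from 4 lists. Of 8 genes for ligand release and handling, 3 were tested against MEF and limma called 0 (0 at an unadjusted p under 0.05). The largest values were Hhat, the enzyme that palmitoylates the ligand (listed at 0 in DTA and pBKSM and at 0.776 to 1.79 FPKM in the other iNSC lines, against 3.26 in MEF), and Disp1, needed for ligand release (4.88 to 5.85 FPKM in the iNSC lines, against 7.79 in MEF). Against cNSC, Disp2, a relative of Disp1, was lower in iNSCs at 0.103 to 0.686 FPKM, against 6.34 in cNSC (-2.52 ± 0.25, adjusted p = 0.0136). Disp2 reached 1 FPKM in cNSC alone and so entered the test only through that library. It was not called with a pseudocount of 0.1 (adjusted p = 0.116), with the clones averaged (0.0598), or without pOKSM (0.0853), mcBKSM clone 1 (0.0645) or clone 3 (0.0599).

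Of 6 receptor and co-receptor genes, 5 were tested, and limma called 0 against MEF and 0 against cNSC (1 at an unadjusted p under 0.05 in each). The co-receptor genes Cdon and Boc had their highest iNSC values in DTA. Cdon was at 23.4 FPKM in DTA, 10.1 FPKM in pBKSM, 4.96 FPKM in pOKSM, 0.323 FPKM in clone 1 and 1.21 FPKM in clone 3, against 23.8 in cNSC and 5.64 in MEF. Boc was at 18.1 FPKM in DTA, 8.81 FPKM in pBKSM, 5.80 FPKM in pOKSM, 4.34 FPKM in clone 1 and 5.34 FPKM in clone 3, against 5.13 in cNSC and 2.27 in MEF. In both genes the clones and pOKSM lay at the low end of the iNSC lines and DTA at the high end, and DTA minus the other lines was 2.71 ± 1.23 for Cdon (adjusted p = 0.295) and 1.47 ± 0.37 for Boc (adjusted p = 0.138). Cdon in pBKSM minus the clones was 2.70 ± 0.45 (adjusted p = 0.0874). Gpc3, a glypican that competes for ligand, was at 3.70 FPKM in DTA, 4.84 FPKM in pBKSM, 18.9 FPKM in pOKSM, 12.7 FPKM in clone 1 and 22.8 FPKM in clone 3, against 0.233 in cNSC and 0.0874 in MEF. All 5 iNSC libraries were above both references; the difference from MEF was 3.37 ± 0.99 (adjusted p = 0.0761) and passed with a pseudocount of 0.1 (adjusted p = 0.0232) and without DTA (0.0457).

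Of 21 genes for cilium function and Gli processing, all tested, 1 rose and 1 fell against MEF, where 16.3% of all genes were called. Kif3a, a motor subunit needed to build cilia, rose (16.3 to 20.6 FPKM in the iNSC lines, against 9.55 in MEF; 0.90 ± 0.18, adjusted p = 0.0267), although it was not called without pOKSM (0.0863), mcBKSM clone 1 (0.0632) or clone 3 (0.0704) or with the clones averaged (0.0607). Spop, an adaptor for degradation of Gli proteins, fell (37.5 to 40.3 FPKM, against 102 in MEF; -1.38 ± 0.12, adjusted p = 0.00131). Spop in cNSC, at 34.6 FPKM, was below the iNSC range. Against cNSC 1 of 21 was called, beside 1.17% of all genes: Prkacb, a catalytic subunit of protein kinase A, was lower at 21.4 to 30.9 FPKM, against 88.4 in cNSC (-1.73 ± 0.23, adjusted p = 0.0424). This call was lost with 7 of the alternatives, at adjusted p from 0.0555 to 0.172, among them each fit that left out pOKSM, pBKSM or a clone. Evc2, a cilium protein that binds Smoothened, was at 4.78 FPKM in DTA and 7.40 in pBKSM, against 17.7 in pOKSM and 21.9 and 23.4 in the clones (pBKSM minus clones -1.49 ± 0.12, adjusted p = 0.0533).

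Of 22 genes listed as targets in neural or other tissue, 18 were tested against MEF, 2 rose and 6 fell, where 16.3% of all genes were called (6.77% higher and 9.55% lower). Fibroblast markers fell in the same comparison, 7 of the 9 tested, and their part in the falls was not tested. The largest changes were Igfbp6, a growth factor binding protein gene (0.142 to 0.732 FPKM in the iNSC lines, against 257 in MEF; -7.66 ± 0.28, adjusted p = 6.94e-05), Olig2, a ventral progenitor factor (59.5 to 423 FPKM, listed at 0 in MEF; adjusted p = 0.0108), Foxf2, a mesenchymal factor (0 to 0.213 FPKM, against 12.4; -3.67 ± 0.16, adjusted p = 0.000103), and the cell cycle kinase gene Cdk6 (0.0508 to 1.02 FPKM, against 16.6; -3.57 ± 0.44, adjusted p = 0.00495). The cNSC library shared these differences from MEF, with Igfbp6, Olig2, Foxf2 and Cdk6 at 0.164, 247, 0 and 0.637 FPKM. Foxf1, Foxc2 and Foxl1 fell and Hes1 rose as well in iNSCs against MEF. Igfbp6 and all 4 Fox genes named here reached 1 FPKM in MEF alone, so they entered the test only through the library where they were high. Cdk6 was not called with a pseudocount of 0.1 (adjusted p = 0.0545). Against cNSC limma called 0 of 18 (1 at an unadjusted p under 0.05), with Osr2 (6.15 to 22.8 FPKM in the iNSC lines, against 0.119 in cNSC; adjusted p = 0.103, called without DTA at 0.0362) and Nkx2-2 as the largest values. Nkx2-2, a gene of the ventral neural tube, was at 3.23 FPKM in DTA, 15.0 FPKM in pBKSM, 28.8 FPKM in pOKSM, 40.7 FPKM in clone 1 and 34.8 FPKM in clone 3, against 3.39 in cNSC and 0 in MEF. Its order over the lines put DTA level with cNSC and the clones highest, and DTA minus the other lines was -2.78 ± 0.55 (adjusted p = 0.0999), called without pBKSM (0.00918). Olig2 ran the other way between lines, at 423 FPKM in pBKSM against 65.1 and 59.5 in the clones (2.75 ± 0.10, adjusted p = 0.0367, and 0.0502 without a filter), and Nkx6-2 was at 1.82 FPKM in pBKSM and listed at 0 in both clones (adjusted p = 0.0367); it passed the filter on low values through pBKSM alone. For pBKSM against pOKSM limma called 0 of 3, 0 of 5, 0 of 21 and 0 of 18 genes in the lists, in the order given (1, 1, 6 and 5 at an unadjusted p under 0.05), and for DTA against the other lines 0 of 2, 0 of 5, 0 of 21 and 0 of 13 (0, 2, 1 and 3). The floor plate gene Foxa2 was listed at 0 in all libraries except DTA, at 1.20 FPKM.

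**Figure D4:**
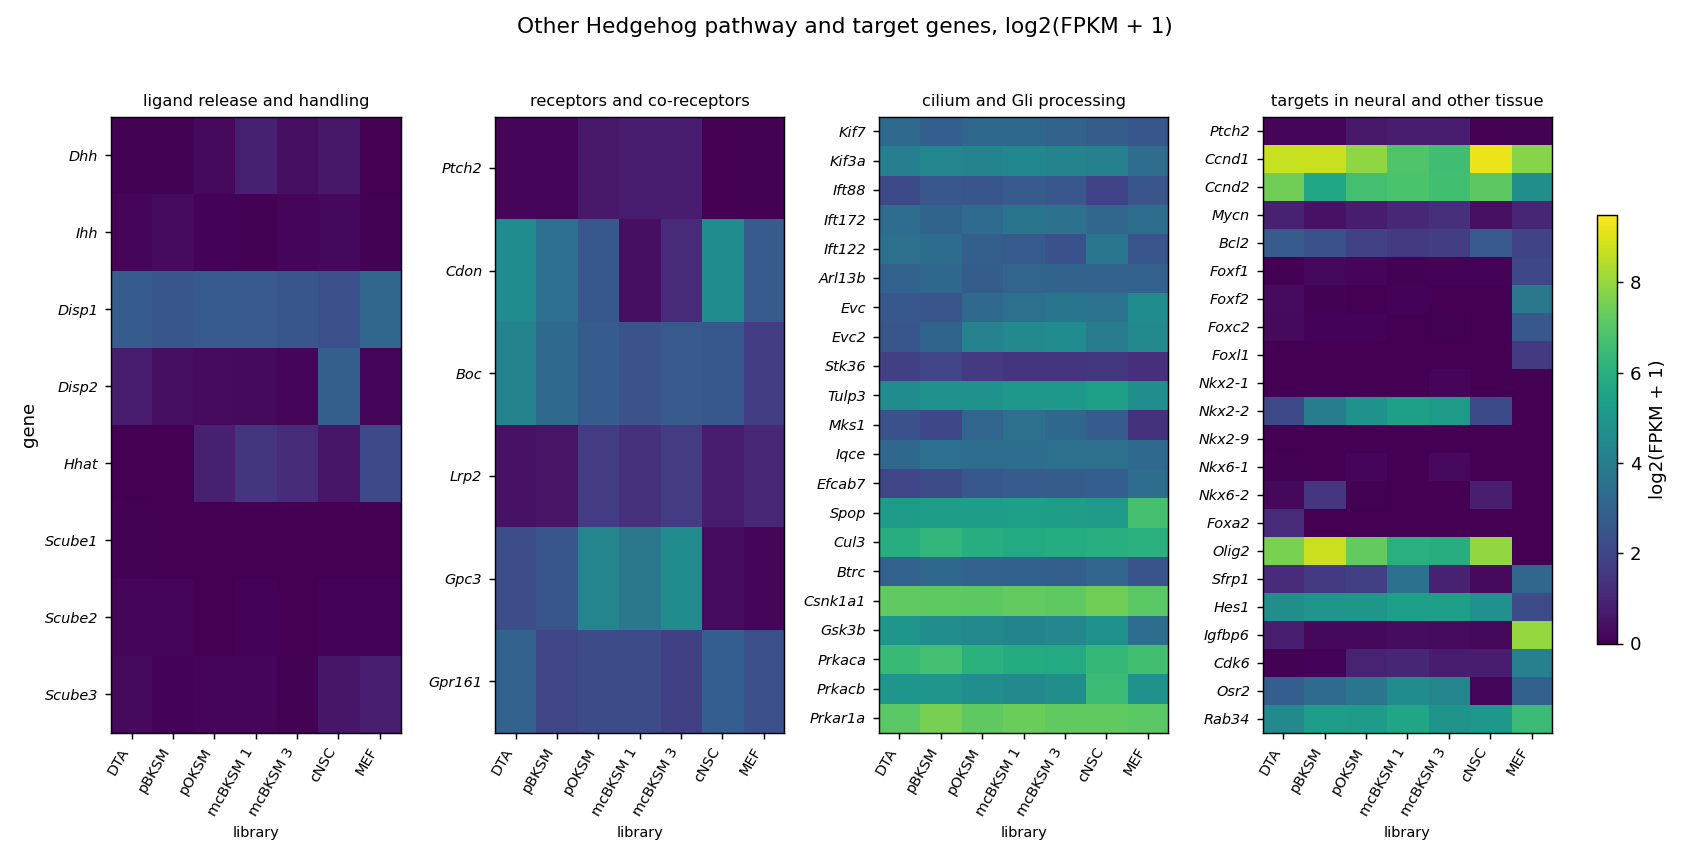
Levels of the genes in 4 further Hedgehog lists (rows) in the 7 libraries (columns), as log2(FPKM + 1) in colour. Igfbp6, Foxf2 and Cdk6 were high in MEF, Cdon was high in DTA and cNSC, and Nkx2-2 was 28.8 to 40.7 FPKM in pOKSM and the mcBKSM clones.

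Genes whose pattern over the 7 libraries was most like that of 4 members were found by Pearson's r on log2(FPKM + 1), as a description over 7 points of which 5 are iNSC lines. For Gli1 the closest were Ctsz (r = 0.985), Diexf (0.983), Insl6 (0.983), Rps6ka2 (0.981) and Cenpo (0.977). For Ptch1 they were Asf1a (0.988), Arvcf (0.988), Rtn2 (0.985), Alpl (0.983) and Sncaip (0.981). For Gli3 they were Trip6 (0.992), Ctf1 (0.976), Tmem167b (0.975), Pcgf2 (0.971) and Smim20 (0.970), with Trip6 at 2.49 FPKM in pBKSM and 2.96 in cNSC against 19.1 to 59.9 in the other libraries. For Shh they were Rasl11a (0.982), Eno1b (0.981), Rnf43 (0.974), Calca (0.973) and Cacng5 (0.972), a likeness that rests on the cNSC library alone, and Eno1b is a near copy of Eno1 whose value is uncertain. With 7 libraries, 182 of 10350 genes had r of 0.9 or more with Gli1 and 281 of 10349 with Ptch1.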

How the data were processed

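RNA sequencing libraries were 1 each of DTA, pBKSM, pOKSM, cNSC and MEF and 2 of mcBKSM clones. The authors deposited FPKM for 24354 gene symbols. The tools named, per the submitters' processing notes, are Cuffnorm, Cufflinks 2.2.1, STAR 2.5.2b and R 3.3.2, with build mm10; their settings and the annotation were not given in the sources used. FPKM hides differences in total RNA per cell. From these values log2(FPKM + 1) was fitted with limma-trend (limma 3.58.1, R 4.3.3) over genes reaching 1 FPKM in 1 or more of the fitted libraries. Two-sided p-values were Benjamini-Hochberg adjusted over all of them, and genes under 0.05 were called. This scale understates changes of low genes.

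The class comparisons came from 1 fit of iNSC, MEF and cNSC (4 residual degrees of freedom), the pBKSM comparisons from 1 fit of the 6 labels (1 residual degree of freedom), and DTA against the other iNSC lines from the 5 iNSC libraries (3). Single libraries were taken to have the spread of the replicated group. P-values measure spread between lines or clones, not between repeats of 1 line. Depth was estimated from steps between low FPKM values of 2218 genes with 1 transcript of at least 1000 bases, assuming fragments of 200 bases; the share of low values within 0.1 of whole multiples was 77.6% to 83.9%, so fragment numbers are approximate. The floor of 3 fragments covers counting error only.

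Lists were named by a fixed rule: all members, then in each list the called genes that differed most (at most 4), or at most 2 values where limma called 0; then the 5 genes most like Shh, Gli1, Ptch1 and Gli3 among genes with at least 5 FPKM in 1 library. Boc, Cdon, Nkx2-2, Evc2 and Foxa2 are given for further comparisons after their values were seen. The pairing of Gli2 with Smo was likewise picked after the values of all members were seen. The members and lists were chosen with earlier results of these data known. Fits were tested on simulated data.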

Additional observations from a re-analysis of the deposited data

Results flagged for a closer look

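Among the 5 iNSC libraries, Gli3 in pBKSM stood apart from the others: at 4.17 FPKM, against 11.8 to 14.1 FPKM, its gap to the nearest library was 0.846 of the whole range on the log2(FPKM + 1) scale, above Dixon's critical value of 0.71 for 5 samples. Among independent samples such a gap appears by chance in about 5% of groups, and 8 members were examined. The mcBKSM clones share a label and pOKSM stood close to them across all genes, so this rate does not strictly hold here. The pBKSM library was not an outlier for Gli2, whose gap was 0.343 of the range.

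The Gli2 change against MEF differed between lines: it was lower in pBKSM (1.26 FPKM) and higher in the mcBKSM clones (12.7 and 14.3 FPKM) than in MEF (2.73 FPKM). The difference between the effects, which is pBKSM minus mcBKSM because MEF is shared, was -2.68 (limma adjusted p = 0.0454).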

How the results depend on the processing

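No paired analysis was possible because every label except mcBKSM has 1 library. The replicate numbers of mcBKSM are its clone numbers and mark no pairs. Against MEF, leaving out 1 iNSC library gave 1147 (without pOKSM) to 3193 (without DTA) called genes, 1417 without mcBKSM clone 3, and 1 to 2 called members; with quantile normalization or averaged clones 1 member was called (Ptch1). Against cNSC, the 152 called genes became 74 with a pseudocount of 0.1 or a 5 FPKM filter, 618 without a filter and 63 with averaged clones. With a library left out they became 50 (without pOKSM) to 883 (without DTA), with 59 without mcBKSM clone 3 and 70 without clone 1. Without a filter 1 member, Shh, was called. That call rests on the cNSC library alone, with the iNSC values near the detection limit. For pBKSM against mcBKSM, the 759 called genes became 1454 with a 5 FPKM filter and 2536 in the 3 BKSM libraries alone, with 3 members called in each (Gli2, Gli3 and Smo) and 0 with a pseudocount of 0.1 or without a filter. For pBKSM against pOKSM, a pseudocount of 0.1 gave 7 called genes, no filter 374 and a 5 FPKM filter 90. For DTA against the other lines, the 44 called genes became 17 with a pseudocount of 0.1, 16 with a 5 FPKM filter, 583 without a filter, and 0 (without mcBKSM clone 1) to 3951 (without pBKSM) with a library left out (2 without clone 3, 3 without pOKSM), with 0 to 2 members called. Directions turned for values near 0: Sufu against MEF (-0.0335 without pOKSM, -0.0116 without mcBKSM clone 1, up to 0.0415 without pBKSM, and -0.00305 with averaged clones), Hhip in pBKSM against pOKSM (0.13 with quantile normalization) and Gli3 in DTA against the others (-0.172 without pBKSM, up to 0.345 without pOKSM). The causes were not tested. The Ptch1 call against MEF held in all 10 alternatives. Leaving out a clone in the pBKSM comparisons left no residual degrees of freedom, so those values have no test. Averaged clones were added after seeing the data. Depth limits Shh, Hhip in MEF and Gli1 in cNSC.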
